A study of Mus musculus with 6 samples.

Results

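The imprinted growth genes H19, Meg3, Rian, Dlk1, Mest, Peg3, Peg10, Plagl1, Grb10 and Ndn were followed in bone marrow mesenchymal stem cells (MSCs) with and without deletion of Pcif1. The 10 genes were listed by name and matched to the gene symbols of the count table, which held 20071 genes. A total of 9 of the 10 had a row, and Rian was not analysed here. Of these 9, 8 passed the filter on low counts and Dlk1 did not.

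PCIF1 adds the N6-methyl mark of m6Am to an adenosine that stands first after the mRNA cap, and the study asked what its loss does to cells on the way to bone. RNA was sequenced from MSCs of 6-week-old Prrx1-Cre;Pcif1fl/fl mice (CKO, 3 libraries) and of Pcif1fl/fl littermates (WT, 3 libraries). All 6 cultures were kept for 7 days in osteogenic medium, which held dexamethasone at 100 nM, β-glycerophosphate at 5 mM and ascorbic acid at 50 µg/mL. The WT cells were therefore not free of engineering: both genotypes carried loxP sites around Pcif1 exons 5 to 7, and only the CKO mice carried Cre, driven by the Prrx1 promoter in the limb mesenchyme and its descendants. Blood-derived cells of the same marrow lie outside that lineage. The labels do not say that the replicates came from separate mice, so p-values measure the spread between these libraries, which may be technical.

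Imprinted genes are transcribed from the copy inherited from only one parent, with the choice set by DNA methylation laid down in the germ line. Many of them control growth before and after birth. They sit in clusters, where one control region often acts on several genes, and many are high in embryonic mesenchyme and are switched down as tissues mature. As background, H19, Meg3, Rian and Grb10 are expressed from the maternal copy in most tissues, and Dlk1, Mest, Peg3, Peg10, Plagl1 and Ndn from the paternal copy. Gene counts do not tell the parental copies apart, so every value below is the sum over both.

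The data came from 20258209 to 28227696 counted reads per library. Pcif1 itself was at 42.8, 41.7 and 39.3 CPM (reads of a gene as a share of all reads of its library, scaled to a common depth and corrected for library composition) in WT 1 to 3 and at 39.2, 37.8 and 39.7 CPM in CKO 1 to 3. The genotypes overlapped (log2 fold change -0.09, adjusted p = 0.645 by the quasi-likelihood test of edgeR, adjusted after Benjamini and Hochberg, which stands behind each adjusted p below unless another tool is named), so a whole-gene count did not show the deletion of exons 5 to 7. Xist, the RNA of the inactive X chromosome, was at 232 to 443 CPM in WT and at 0.722 to 1.79 CPM in CKO, and genotype and this difference cannot be told apart. The sex of the mice behind these libraries is not given in the sources used here. A difference in sex between the groups could not be told apart from genotype in any comparison below. WT 3 stood apart: 3.63% of its reads came from the mitochondrial genome against 1.40% to 1.57% in the other 5 libraries, and its correlation with the other WT libraries was 0.977 to 0.982 against 0.995 to 0.997 for other pairs of one genotype. The summed level of 15 macrophage markers was high in every library. It was 34188 to 37941 CPM in WT and 35880 to 39078 CPM in CKO, with Lyz2 alone at means of 24321 and 23900 CPM. Cx3cr1 (means of 3.00 and 7.12 CPM) and Fcgr1 (37.0 and 68.4 CPM) rose at an adjusted p under 0.05. This is 13.3% of the 15, against 2.88% of all genes tested, and 0 fell. Every CKO library lay above every WT library in 6 of the 15 (15.0% of all genes) and below in 1 (15.7%). Genes of macrophages and of mesenchymal cells were thus both abundant in cultures labelled as MSCs. Fewer cells of a type and less RNA per cell cannot be told apart in bulk libraries.

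H19, Grb10, Mest and Plagl1 fell in CKO and no member rose, out of 8 tested. H19 and Plagl1 fell to 39.3% and 42.6% of their WT means, Mest to 59.9% and Grb10 to 65.2%. The 4 of 8 compares with 4.51% of all 13733 genes tested that were called lower and 2.88% called higher at an adjusted p under 0.05. H19 and Plagl1 also passed a fold of 2, as 2.50% of all genes did in this direction. At an unadjusted p under 0.05, 5 members were lower and 0 were higher (11.8% and 9.56% of all genes), and DESeq2 and limma-voom also called 0 higher. In 5 members every CKO library lay below every WT library (15.7% of all genes), and in 0 every CKO library lay above (15.0%). The median log2 fold change of the 8 was -0.58, against 0.00 over all genes tested. Both parental classes took part, with 2 of 3 maternally expressed members (H19, Grb10) and 2 of 5 paternally expressed members (Mest, Plagl1) lower.

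**Figure D1:**
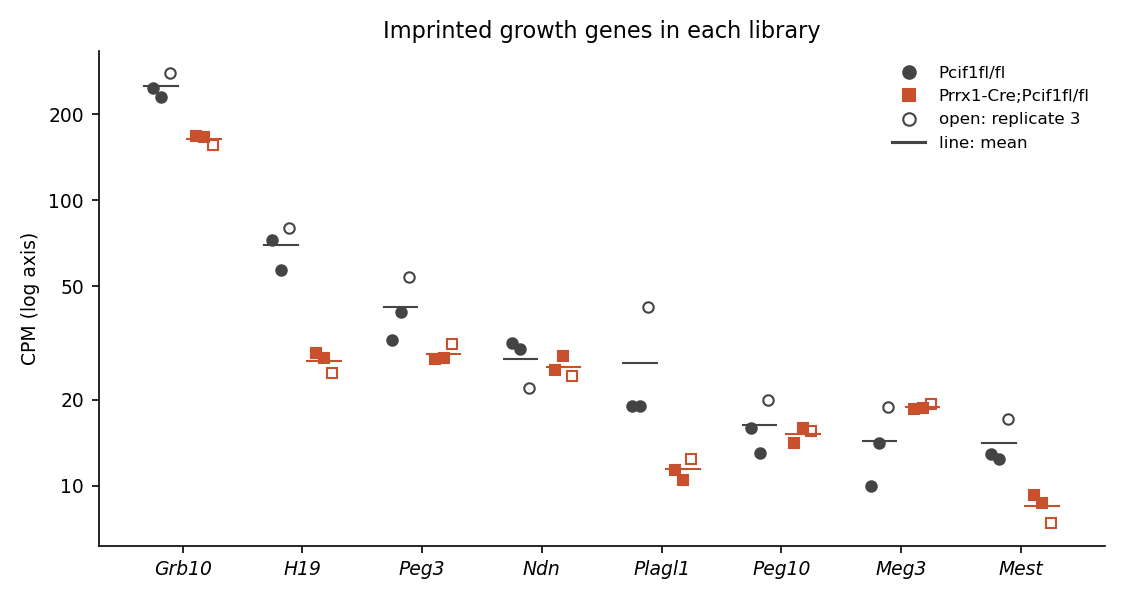
Level of the 8 tested imprinted growth genes in each library, in CPM on a log axis. Circles are the 3 WT libraries and squares the 3 CKO libraries, open symbols mark replicate 3, and short lines mark the means. For Grb10, H19, Peg3, Plagl1 and Mest all squares lie below all circles, and for Plagl1 the open circle at 42.4 CPM lies far above the other WT libraries at 19.04 and 19.07 CPM.

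Counted per kilobase of exon (RPKM), the members ranged widely in WT. H19 (28.3 ± 4.75 RPKM, SD, n = 3) and Grb10 (27.6 ± 2.74 RPKM) led and overlapped each other. Ndn followed at 7.54 ± 1.40 RPKM, below Grb10 and above Mest without overlap. Mest at 3.59 ± 0.65, Plagl1 at 3.43 ± 1.72, Peg3 at 3.17 ± 0.81 and Peg10 at 2.45 ± 0.53 RPKM each overlapped their neighbour in this order. Meg3 was lower again at 0.792 ± 0.248 RPKM. In CKO the lead passed to Grb10, at 17.99 ± 0.71 RPKM against 11.1 ± 0.89 RPKM for H19.

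Annotated start sites are shown for Plagl1, Grb10 and Mest, which fell, and for Meg3, which did not pass the test, because the mark that PCIF1 writes needs an adenosine as the first transcribed base. Each line gives 30 bases before and 10 bases from the start in the direction of transcription, from RefSeq on GRCm38.p6, with the first transcribed base as the only capital.
Plagl1, chr10:13090802-13090841, plus strand: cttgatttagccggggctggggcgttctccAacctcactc
Grb10, chr11:12037411-12037450, minus strand: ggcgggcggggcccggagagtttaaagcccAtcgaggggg
Grb10, second start, chr11:12027962-12028001, minus strand: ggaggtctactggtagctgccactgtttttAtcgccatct
Mest, chr6:30733476-30733515, plus strand: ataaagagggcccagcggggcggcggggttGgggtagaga
Mest, second start, chr6:30738020-30738059, plus strand: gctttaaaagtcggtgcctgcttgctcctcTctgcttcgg
Meg3, chr12:109540966-109541005, plus strand: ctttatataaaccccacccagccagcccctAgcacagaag
An adenosine stood first at 5 of the 11 annotated starts of the 7 members with an entry (Plagl1, both Grb10 starts, Peg3 and 1 Meg3 start), against 34.4% of 32851 promoter windows of the genome. H19 and Peg10 had no entry, so the comparison leaves out the member that fell most in the fit on all libraries. Plagl1 and Grb10, which fell, thus shared this base with Peg3 and Meg3, which did not pass the test, while Mest fell with G or T first. The letters TATAAA, searched on the transcribed strand 16 to 40 bases before the start, were found only in the Meg3 window shown (1.99% of all windows). The first Grb10 window of 300 bases held 45 CpG pairs, a number that 1.93% of windows reach. Where transcripts really began in these cells was not measured.

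H19 is a spliced non-coding RNA of the Igf2 locus (ENSMUSG00000000031, chr7:142575529-142578143, minus strand, GRCm38, 3 exonic blocks in the merged gene model). It was at 72.6, 56.9 and 79.7 CPM in WT 1 to 3. In CKO 1 to 3 it was at 29.1, 28.02 and 24.9 CPM. The groups lay far apart, with the highest CKO library well below the lowest WT library. H19 fell from 69.7 ± 11.7 to 27.4 ± 2.18 CPM (SD, n = 3 each), a log2 fold change of -1.35 ± 0.14 (SE, adjusted p = 0.000952). Among the 4 members that fell it was the only one called under all 13 alternatives that refit the counts, at log2 fold changes of -1.48 to -1.24. Without WT 3 its difference was -1.24.

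H19 RNA is also the primary transcript of a microRNA, miR-675, which is cut from an exon (chr7:142577078-142577133, minus strand), and an intron of Mest hosts miR-335 (chr6:30741314-30741375, plus strand). Their mature RefSeq sequences are given because both hosts are members that fell, with the seed, bases 2 to 8, in capitals.
mmu-miR-675-5p: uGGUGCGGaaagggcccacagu
mmu-miR-675-3p: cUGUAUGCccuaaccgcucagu
mmu-miR-335-5p: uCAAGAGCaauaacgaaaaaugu
mmu-miR-335-3p: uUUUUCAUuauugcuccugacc
No seed was shared among the 4. Libraries of polyadenylated RNA do not measure mature microRNAs, so their own levels are not known here. The Mir675 hairpin covered 3.41% of the H19 exonic bases and small antisense genes a further 5.73%.

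Grb10 encodes an adaptor protein that binds the insulin and IGF1 receptors and restrains growth (ENSMUSG00000020176, chr11:11930508-12038683, minus strand). It was at 246, 229 and 278 CPM in WT and at 168, 166 and 156 CPM in CKO. No libraries overlapped, and both genotypes were tight. The fall was from 251 ± 24.9 to 164 ± 6.46 CPM, a log2 fold change of -0.62 ± 0.10 (adjusted p = 0.00725). Without CKO 3 the difference was no longer called (adjusted p = 0.0585), while it was under the other 12 alternatives.

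Plagl1 encodes a zinc finger transcription factor that restrains the cell cycle and is known as a regulator of other imprinted genes (ENSMUSG00000019817, chr10:13060504-13131694, plus strand). It was at 19.04, 19.07 and 42.4 CPM in WT and at 11.4, 10.5 and 12.4 CPM in CKO. All CKO libraries were lower, but WT 3 was 2.23-fold above the mean of WT 1 and WT 2 and set much of the size of the change. Plagl1 fell by a log2 fold change of -1.23 ± 0.31 (adjusted p = 0.0488). Without WT 3 the log2 fold change was -0.73 with a smaller SE of 0.11 and was called (adjusted p = 0.000205). It was not called with RLE normalization, with limma-voom, or without WT 2, CKO 1, CKO 2 or CKO 3 (adjusted p up to 0.189).

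Mest, also called Peg1, encodes a protein of the hydrolase family and is a marker of embryonic mesoderm (ENSMUSG00000051855, chr6:30723547-30748465, plus strand). It was at 12.97, 12.4 and 17.1 CPM in WT and at 9.32, 8.71 and 7.41 CPM in CKO, again without overlap. Mest fell by a log2 fold change of -0.74 ± 0.17 (adjusted p = 0.0357). When libraries were left out singly, the call was lost without WT 1, WT 2, CKO 1, CKO 2 or CKO 3 (adjusted p up to 0.165). Copg2, the antisense gene whose exons cover 23.1% of Mest's exonic bases, was at a log2 fold change of 0.09 and did not pass the test, and the strand setting of the counting is not given in the sources used here.

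Peg3, a zinc finger gene of the paternal copy, was at 32.3, 40.5 and 53.8 CPM in WT and at 27.8, 27.9 and 31.3 CPM in CKO. The groups did not overlap, but CKO 3 came close to WT 1, and the spread of the WT libraries was wide. The log2 fold change of -0.54 ± 0.18 did not pass the test (adjusted p = 0.117). It was called without WT 1 (adjusted p = 0.0367) and, at -0.33, without WT 3 (adjusted p = 0.0324).

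Peg10, a gene derived from a retrotransposon, was at 15.9, 13.01 and 20.01 CPM in WT and at 14.2, 16.0 and 15.6 CPM in CKO. Ndn, which encodes the MAGE family protein necdin, was at 31.5, 30.1 and 21.9 CPM in WT and at 25.5, 28.4 and 24.3 CPM in CKO. In both genes the CKO libraries lay within the WT range. The log2 fold changes were -0.10 ± 0.17 (adjusted p = 0.776) for Peg10 and -0.09 ± 0.15 (adjusted p = 0.764) for Ndn. That of Peg10 turned to 0.08 without WT 3 and that of Ndn to 0.00 without WT 1.

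Meg3, the maternally expressed non-coding RNA of the Dlk1-Dio3 cluster (chr12:109541001-109571726, plus strand), had the only log2 fold change above 0 among the 8. It was at 9.96, 14.1 and 18.9 CPM in WT and at 18.6, 18.7 and 19.3 CPM in CKO. Only WT 3 reached the CKO level. The log2 fold change of 0.39 ± 0.21 did not pass the test (adjusted p = 0.339). Without WT 3 it was 0.64 and was called higher (adjusted p = 0.00275), the only member called in this direction under any alternative. Dlk1, the paternally expressed transmembrane protein gene next to it and a brake on fat cell formation, had 4, 2 and 0 reads in WT and 3, 0 and 2 in CKO, near or under a floor of 3 reads per library. A change of Dlk1 was not detectable at this depth.

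**Figure D2:**
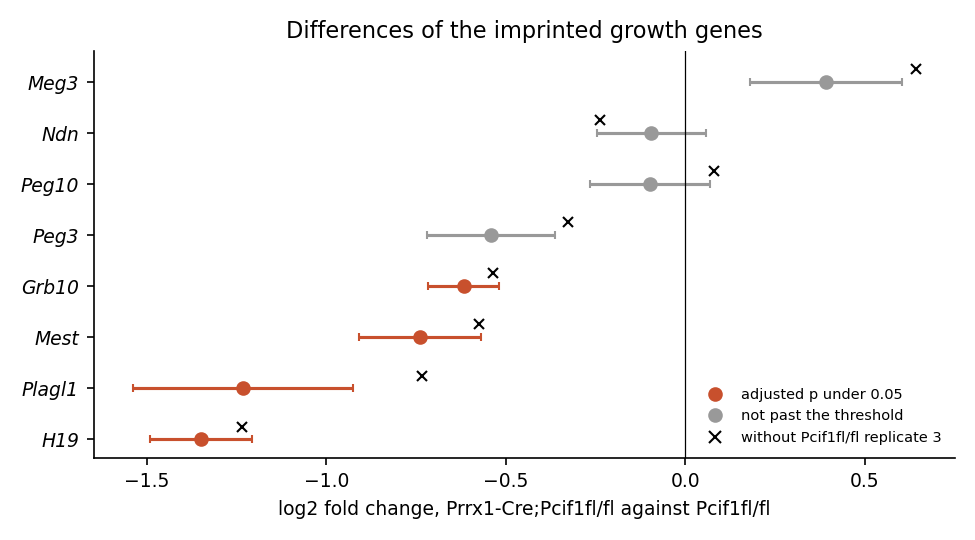
Log2 fold change of CKO against WT for the 8 tested members, with bars of 1 SE from edgeR. Coloured points passed an adjusted p under 0.05 and crosses give the value without WT 3. H19, Plagl1, Mest and Grb10 lie left of 0 with and without that library, Plagl1 moves from -1.23 to -0.73, and Peg10 changes sign.

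Since WT 3 was the highest of the 6 libraries in 6 of the 8 members, against 32.1% of all genes tested, the counts were repeated without it. H19, Grb10, Mest, Plagl1 and Peg3 were then called lower and Meg3 higher, but 10.4% of all genes were called lower and 11.1% higher in that fit. The spread also differed by genotype. The coefficient of variation was smaller in CKO than in WT in all 8 members, as in 75.5% of all genes tested. For Meg3 it was 31.3% in WT and 2.04% in CKO, and for Plagl1 50.2% and 8.36%.

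Beyond the members, 60 other imprinted genes were listed, of which 55 had a row and 39 were tested. Of these 39, 6 fell and 1 rose, or 15.4% and 2.56% against 4.51% and 2.88% of all genes, and their median log2 fold change was 0.07. The genes listed as paternally expressed gave 4 lower and 0 higher of 16, with a median of -0.22. Those listed as maternally expressed gave 2 lower and 1 higher of 23, with a median of 0.09. Which copy these cells expressed was not measured. The lower calls were fewer without CKO 1 (1), CKO 2 (1) or CKO 3 (2). Without WT 3, 9 were lower and 6 higher, in a fit that called 10.4% of all genes lower and 11.1% higher.

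The 6 genes that fell included a growth factor and a cell cycle inhibitor. Igf2, the fetal growth factor that shares an enhancer region with H19, was low in both genotypes, at 5.24, 4.89 and 9.75 CPM in WT and 1.13, 1.19 and 2.41 CPM in CKO. It fell by a log2 fold change of -2.08 ± 0.38 (adjusted p = 0.0135), with 62.8% of its exonic bases shared with the overlapping gene model Gm49394 on the same strand, so its reads are uncertain. Without CKO 1 or CKO 2 Igf2 was not called (adjusted p up to 0.0785). Asb4, which encodes a substrate receptor of a ubiquitin ligase, fell from 33.4 ± 4.07 to 11.1 ± 0.59 CPM (log2 fold change -1.59 ± 0.13, adjusted p = 0.000268) and was called under all 13 alternatives. Cdkn1c, the gene of the cyclin-dependent kinase inhibitor p57, fell from 12.3 ± 2.48 to 6.29 ± 0.67 CPM (-0.97 ± 0.18 on the log2 scale, adjusted p = 0.0154), with 30.7% of its exonic bases antisense to Gm44732. Without CKO 1, CKO 2 or CKO 3 Cdkn1c was not called.

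Nnat, which encodes the membrane protein neuronatin, fell from 3.86 ± 0.83 to 1.64 ± 0.27 CPM (log2 fold change -1.23, adjusted p = 0.0185). Sgce, the gene of epsilon-sarcoglycan, fell from 38.0 ± 4.09 to 25.6 ± 0.98 CPM (-0.57, adjusted p = 0.018). Both lost their call without CKO 1, CKO 2 or CKO 3. Peg13, a non-coding RNA within an intron of Trappc9, fell from 54.9 ± 4.71 to 40.3 ± 1.84 CPM (-0.45, adjusted p = 0.0355), and was not called without WT 1, WT 2 or any CKO library. The gene that rose was Dcn, for the matrix proteoglycan decorin, at 30.1 ± 6.62 CPM in WT and 49.6 ± 3.32 CPM in CKO (0.72, adjusted p = 0.0284), with the same 5 libraries deciding the call. The genes with the highest mean CPM over the 6 libraries in the maternal and in the paternal list did not pass the test. Igf2r, the receptor that clears IGF2, was at 332 ± 19.2 and 356 ± 19.3 CPM (0.10, adjusted p = 0.571), and Impact, a regulator of translation on the paternal list, at 110 ± 9.90 and 119 ± 4.63 CPM (0.11, adjusted p = 0.565).

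**Figure D3:**
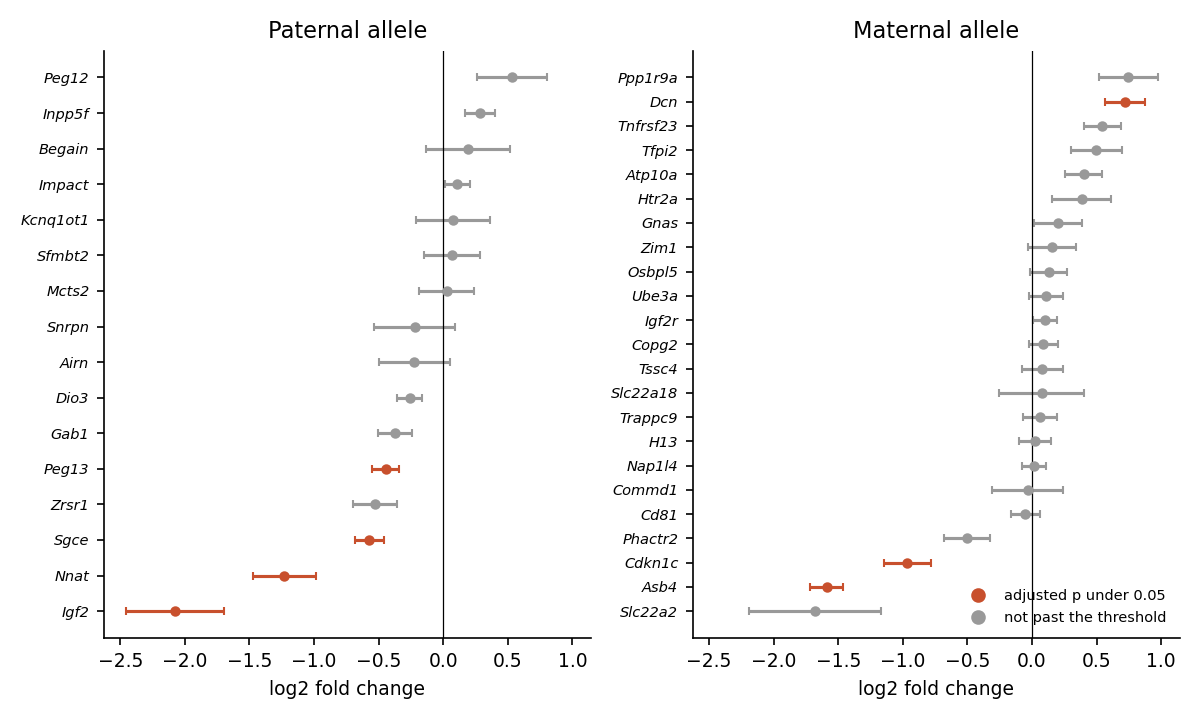
Log2 fold change of CKO against WT, with bars of 1 SE, for the 39 other imprinted genes tested, split by the parental copy listed as expressed, which was not measured in these cells. Coloured points passed an adjusted p under 0.05: Igf2, Nnat, Sgce and Peg13 on the paternal side and Asb4, Cdkn1c and Dcn on the maternal side, with Dcn alone to the right of 0.

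Genes within 500 kb of a member were then examined, since clusters share control regions. Of 52 such neighbours tested, 2 fell (Igf2 and Sgce) and 2 rose (Prr33 and Col1a2), or 3.85% each way, close to the 4.51% lower and 2.88% higher of all genes. Of the 42 on no imprinted list, 0 were lower and 2 were higher. Prr33, near H19, went from 2.01 ± 0.39 to 4.50 ± 0.39 CPM (log2 fold change 1.15, adjusted p = 0.0126), and Col1a2, the type I collagen chain gene near Peg10, from 4105 ± 779 to 6377 ± 154 CPM (0.64, adjusted p = 0.0322). Both were named after their values were seen. In the list of genes of the same clusters, 3 of 25 tested (12.0%) were lower (Asb4, Igf2 and Sgce) and 0 higher. These 3 were already counted among the other imprinted genes, so this share is not a separate result. The most abundant of the cluster list, Ppp2r5c, was at a log2 fold change of -0.03 (adjusted p = 0.918).

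Peg10 and H19 were also read within each library against the neighbours Sgce and Igf2, pairs chosen after both neighbours were seen to be called lower. The start of Sgce lies 0.099 kb from that of Peg10 on the opposite strand, and both are expressed from the paternal copy. Sgce counts were 2.26, 2.71 and 2.14 times those of Peg10 in WT and 1.83, 1.64 and 1.57 times in CKO. This ratio was lower in every CKO library, at a log2 difference of -0.49, but 3 against 3 libraries cannot go below p = 0.1 in a two-sided exact permutation test, which is the value found (0.2 adjusted over the 2 ratios computed). Igf2 starts 88.7 kb from H19 and is expressed from the other copy. The H19 to Igf2 ratio was 13.8, 11.6 and 8.17 in WT and 25.9, 23.5 and 10.4 in CKO. The genotypes overlapped (two-sided exact permutation p = 0.3, adjusted p = 0.3), so an unequal fall of the pair was not shown.

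**Figure D4:**
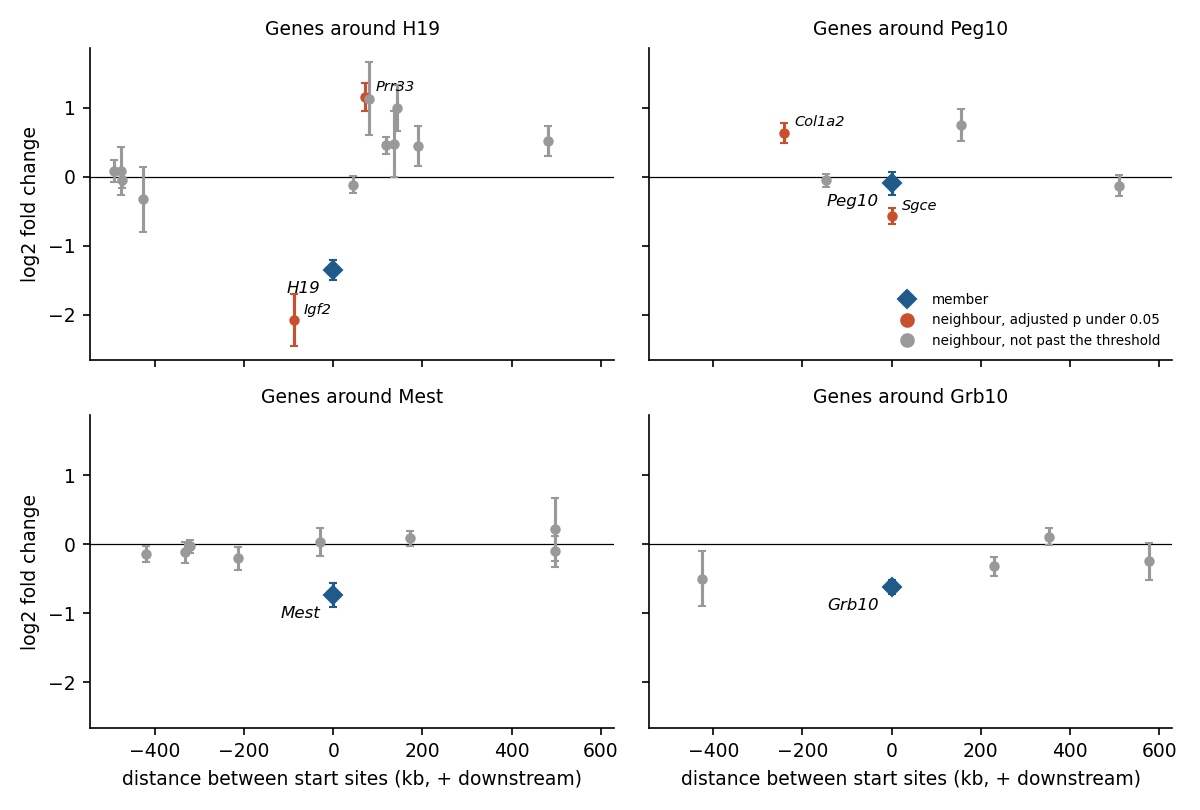
Log2 fold change of CKO against WT, with bars of 1 SE, of tested genes around H19, Peg10, Mest and Grb10, by the distance between start sites in kb, counted positive downstream of the member. Diamonds are the members and coloured circles the neighbours past an adjusted p of 0.05. Around H19, Igf2 lies at -2.08 and Prr33 at 1.15, around Peg10, Sgce lies at -0.57 and Col1a2 at 0.64, and around Mest and Grb10 no neighbour passed.

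A list for imprint maintenance held DNA methyltransferases, zinc finger proteins that guard methylated control regions, and also the Tet genes. Of this list, 1 of 23 tested fell and 0 rose. This is 4.35% against 4.51% of all genes, and so no more than the share over all genes. The gene was Tet1, whose enzyme oxidizes methylated cytosine. Tet1 was at 2.18, 1.84 and 2.47 CPM in WT and at 0.315, 0.896 and 0.577 CPM in CKO, which is 50 to 69 reads against 7 to 18 (log2 fold change -1.87 ± 0.36, adjusted p = 0.0176, not called without CKO 1 or CKO 3). In 6 of the 23 every CKO library lay below every WT library (15.7% of all genes), and in 0 every CKO library lay above (15.0%). Dnmt1, the maintenance methyltransferase, was at a log2 fold change of -0.26 (adjusted p = 0.196), and Ehmt2, a histone methyltransferase and the most abundant of the list, at -0.05 (adjusted p = 0.858).

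Since GRB10 acts on insulin and IGF signalling, that pathway was read as well. Of 18 genes tested, 3 (16.7%) fell and 0 rose, against 4.51% and 2.88% of all genes. They were the ligand gene Igf2, already counted among the other imprinted genes, the docking protein gene Irs1 and Pik3r1, the regulatory subunit of PI3-kinase. Irs1 went from 76.4 ± 3.53 to 57.3 ± 1.79 CPM (log2 fold change -0.42 ± 0.09, adjusted p = 0.025), with 30.9% of its exonic bases antisense to Gm9747. When libraries were left out singly, this call too was lost without WT 1, WT 2, CKO 1, CKO 2 or CKO 3. Pik3r1 went from 365 ± 50.0 to 236 ± 17.0 CPM (-0.63 ± 0.12, adjusted p = 0.0149, not called without CKO 1 or CKO 3). The receptor genes did not pass the test, with Igf1r at -0.03 (adjusted p = 0.901) and Insr at -0.22 (adjusted p = 0.222), nor did Nedd4, the most abundant of the list and the gene of a ubiquitin ligase that binds GRB10, at -0.36 (adjusted p = 0.141, called without WT 3).

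Markers of several cell types moved with genotype beside these genes, and their part in the members' differences was not tested. The counts below stand against 4.51% of all genes lower and 2.88% higher. Of 13 mesenchymal and osteoblast markers tested, 6 fell (Alpl, Cxcl12, Ibsp, Lepr, Pdgfra and Sp7) and 3 rose (Col1a1, Col1a2 and Postn), with a summed level of 24126 to 28805 CPM in WT and 26778 to 36076 CPM in CKO. Of 9 adipocyte markers tested, 6 fell (Adipoq, Cfd, Cidec, Plin1, Plin4 and Pparg), and Plin1 and Cfd were at 0 in every CKO library. Their sum of 792 to 839 CPM in WT and 671 to 871 CPM in CKO was carried by Lpl and Cebpa, which did not pass. Fabp4 went the other way without passing (adjusted p = 0.0545). Every CKO library of Fabp4, at 85.3 to 107 CPM, lay above every WT library, at 66.3 to 78.8 CPM. Of 16 cell cycle genes 1 fell (Ccnb1), and 11 had every CKO library below every WT library, against 15.7% of all genes. The sum over the 16 was 527 to 650 CPM in WT and 416 to 466 CPM in CKO. Skeletal muscle markers summed to 1.76 to 2.26 CPM in WT and 1.83 to 1.99 CPM in CKO. The remaining lists gave 2 lower of 5 chondrocyte genes (Col10a1 and Comp), 1 higher of 2 neutrophil genes (S100a8), and 0 called of 9 endothelial, 8 smooth muscle and 2 skeletal muscle genes.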

How the data were processed

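The authors deposited raw read counts per gene, made from polyadenylated RNA sequenced as paired ends and mapped to mm10. The submitters' processing notes name FastQC, HISAT2 and DESeq2. The counting tool and strand setting are not given in the sources used here. The design text speaks of duplicates, whereas the labels give 3 libraries per genotype. Of 20163 rows, 92 repeated a gene and were dropped. Counts were tested with edgeR 4.0.16 (filterByExpr, TMM, quasi-likelihood) in R 4.3.3, over 13733 genes, at a Benjamini-Hochberg adjusted p under 0.05. Alternatives used DESeq2 1.42.0, limma-voom 3.58.1, other scalings and filters, a replicate block and each library left out. CPM used TMM factors, and RPKM divided them by the merged exons of GENCODE M21 (GRCm38). Scripts were tested on simulated data. The members and lists were chosen with earlier results of these data known. All members were named, and of the lists of imprinted genes, cluster genes, imprint maintenance and insulin and IGF signal every gene called plus the most abundant one. Other genes were named after their values were seen.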

Additional observations from a re-analysis of the deposited data

How the results depend on the processing

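The direction of H19, Grb10, Mest, Plagl1, Peg3 and Meg3 held under all 13 alternatives. The count of 4 members lower was 3 with RLE normalization, limma-voom and the replicate block, 2 with a fold of 2 added, and 1 to 5 when each library was left out. The count of members higher was 0 to 1. The 6 other imprinted genes lower became 4 with the replicate block, 3 with the fold and 1 to 9 without one library. The 1 higher became 2 with DESeq2, 2 without an expression filter, 0 with the fold and 0 to 6 without one library. The 4 imprint maintenance and insulin and IGF signal genes called became 5 with DESeq2, 3 with the replicate block, 2 with the fold and 0 to 11 without one library. The alternatives for this last count and for single genes outside the members were chosen after seeing the data. Leaving out 1 library moved the log2 fold change of Peg10 between -0.238 and 0.0807, of Ndn between -0.238 and 0.00465, of Ehmt2 between -0.164 and 0.0563 and of Ppp2r5c between -0.107 and 0.102. Replicate numbers shared by the genotypes did not pair the libraries: the correlations of same-numbered deviations were 0.07, -0.06 and 0.00, and not every library correlated best with its own number. The block ended the calls of Mest, Sgce, Peg13 and Irs1. The cause of these changes was not tested. Dlk1, at 0 to 4 reads per library, could not be compared at this depth.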
